A study of Mus musculus with 6 samples.

Results

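The A-kinase anchoring proteins and the cAMP-activated exchange factors known as Epac were examined in mpkCCD clone 11 cells, a clonal immortalised mouse line of the cortical collecting duct of the kidney. The family was taken as 10 genes: Akap1, Akap7, Akap8, Akap9, Akap10, Akap11, Akap12, Akap13, Rapgef3 (Epac1) and Rapgef4 (Epac2). Every probe set whose platform annotation names exactly 1 of these genes was a member, which gave 24 of 28225 probe sets and 9 of the 12364 genes measured. Of the 24 probe sets, 20 belonged to anchoring proteins and 4 to Rapgef3. Rapgef4 was not analysed here, because no probe set among the deposited values carried its name. Whether the array itself holds a probe set for a gene missing from those values was not checked. The cells were grown on membrane supports until the layer had an electrical resistance of 5 kohm per cm2 or more. One group of 3 samples then received 0.1 nM dDAVP (desmopressin), a vasopressin analog that activates the V2 receptor, for 5 days, and the other group of 3 received vehicle alone for the same time. All 6 samples came from this 1 clone, and the labels call them biological replicates without saying whether passages or days differed, so p-values measure only the spread between these samples. Total RNA of each was hybridised to 1 Affymetrix mouse genome array, on which a gene is read by 1 or more probe sets and each value is a log2 signal.

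Vasopressin acts on collecting duct principal cells by raising cAMP, which has more than one receptor inside the cell. Protein kinase A is held near its substrates by anchoring proteins, which bind its regulatory subunits through an amphipathic helix and fix the enzyme to membranes, mitochondria, centrosomes or the nucleus. Epac proteins bind cAMP directly and load the small GTPases Rap1 and Rap2 with GTP, independently of protein kinase A. In rat kidney a long form of the Akap7 product is found on the vesicles that carry the water channel aquaporin 2. The Akap11 product is also known to bind aquaporin 2.

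Aqp2, the gene of that water channel, showed the response to the treatment. It measured 10.93, 10.79 and 10.82 log2 units in dDAVP cells and 6.65, 6.72 and 6.72 in vehicle cells, and rose 17.8-fold (95% interval 16.1 to 19.7, limma adjusted p = 1.66e-07). Of 11 measured principal cell markers 3 rose and 0 fell, the others being Fxyd4, a regulator of the sodium pump (log2 change 0.68, adjusted p = 0.0116), and the vasopressin V2 receptor gene Avpr2 (0.52, adjusted p = 0.0271). Their means over 6 arrays ran from 3.74 log2 units for the transcription factor Elf5, and 4.99 for the water channel Aqp3, to 11.79 for the adhesion protein Cdh1. Markers of other cell types were mixed. The 3 measured of intercalated cells, which also belong to the collecting duct, lay between 6.10 (Atp6v0a4) and 9.36 (Rhcg). Of the 2 measured of the proximal tubule, Lrp2 lay at 8.30 and Aqp1 at 3.43. The few measured markers of endothelium (Cdh5, mean 3.10), thick ascending limb (Slc12a1, 2.93) and fibroblasts (Col1a1, 3.63, and Col3a1, 2.75) lay near the low end of the array, where the lowest value was 2.15. Leukocyte markers lay at 3.21 (Ptprc), 3.57 (Adgre1) and 5.56 (Cd68), and 0 genes of these other lists passed. The medians of the 6 arrays spanned 0.043 log2 units.

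No anchoring protein or Epac transcript passed the test applied to all probe sets. With limma and a Benjamini-Hochberg threshold of 0.05, 0 of the 24 probe sets and 0 of the 9 genes passed, with each gene read by its brightest probe set. Over all deposited probe sets other than controls, 0.216% passed (0.188% higher, 0.0283% lower). Of genes, 0.291% passed (0.259% higher, 0.0324% lower), so a count of 0 among so few members is near the background. The lowest adjusted p of a member was 0.479. At an unadjusted p below 0.05 there were 3 member probe sets, 2 higher and 1 lower with dDAVP, against 7.98% of all probe sets. The intervals, each taken alone, bounded the change of signal. All 24 of the 95% intervals lay within 1.5-fold of no change in either direction. Those of the 9 genes by their brightest probe set lay between folds of 0.835 and 1.22. For the 4 probe sets with a mean below 4 log2 units, a change of the transcript may be compressed in the signal. In bulk RNA a change in the number of expressing cells cannot be told apart from a change per cell.

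**Figure D1:**
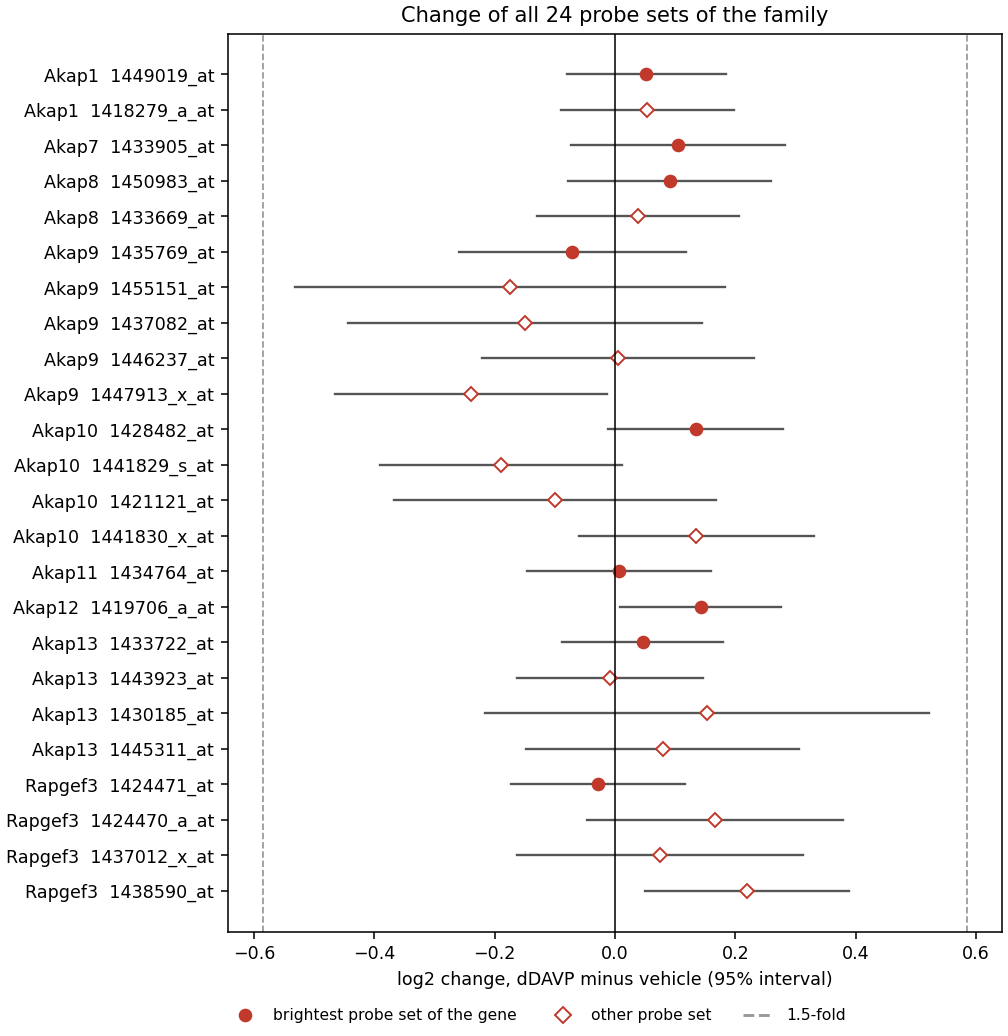
Log2 change (dDAVP minus vehicle) of the 24 member probe sets, with bars for the 95% interval of the limma fit on 3 arrays per group, filled circles for the brightest probe set of each gene and open diamonds for the others. Points run from -0.24 to 0.22, and every bar stays inside the dashed lines at 1.5-fold.

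More member changes were positive than negative, although none passed. Positive values were seen for 16 of the 24 probe sets (66.7%) and for 51.7% of all probe sets, and the median log2 change was 0.049 for the members and 0.0039 for all probe sets. These shares depend on the scaling of the arrays. Centring on the median or scaling to poly-A controls left 14 positive member probe sets. Scaling to hybridisation controls, which moved the median of all probe sets to 0.15, gave 20. The positive share of all probe sets under these scalings is not given here. Probe sets of 1 gene are not independent, so the excess of positive members is a description with no test. All dDAVP arrays lay above all vehicle arrays for 3 member probe sets, 1 each of Akap12, Akap10 and Rapgef3, against 8.07% of all probe sets. The opposite order was seen for 0 members, against 5.35% of all probe sets.

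The order of the signals was the same in both groups. From the highest to the lowest mean over the 6 arrays it ran Akap12 (10.57), Akap11 (9.93), Akap8 (9.58), Akap9 (9.10), Akap13 (8.36), Akap1 (8.17), Akap10 (7.25), Rapgef3 (7.15) and Akap7 (6.63). Akap12 stood at the 95.4th percentile of all probe sets and Akap7 at the 48.7th. Arrays of neighbours in this order overlapped only for Akap10 and Rapgef3. Probes differ in how strongly they bind, so this is an order of signals and not of transcript numbers. Of the other probe sets, 4 had a mean below 4 log2 units (2 of Akap13, 1 of Akap9 and 1 of Akap10), near the level of the endothelial, thick limb and fibroblast markers.

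**Figure D2:**
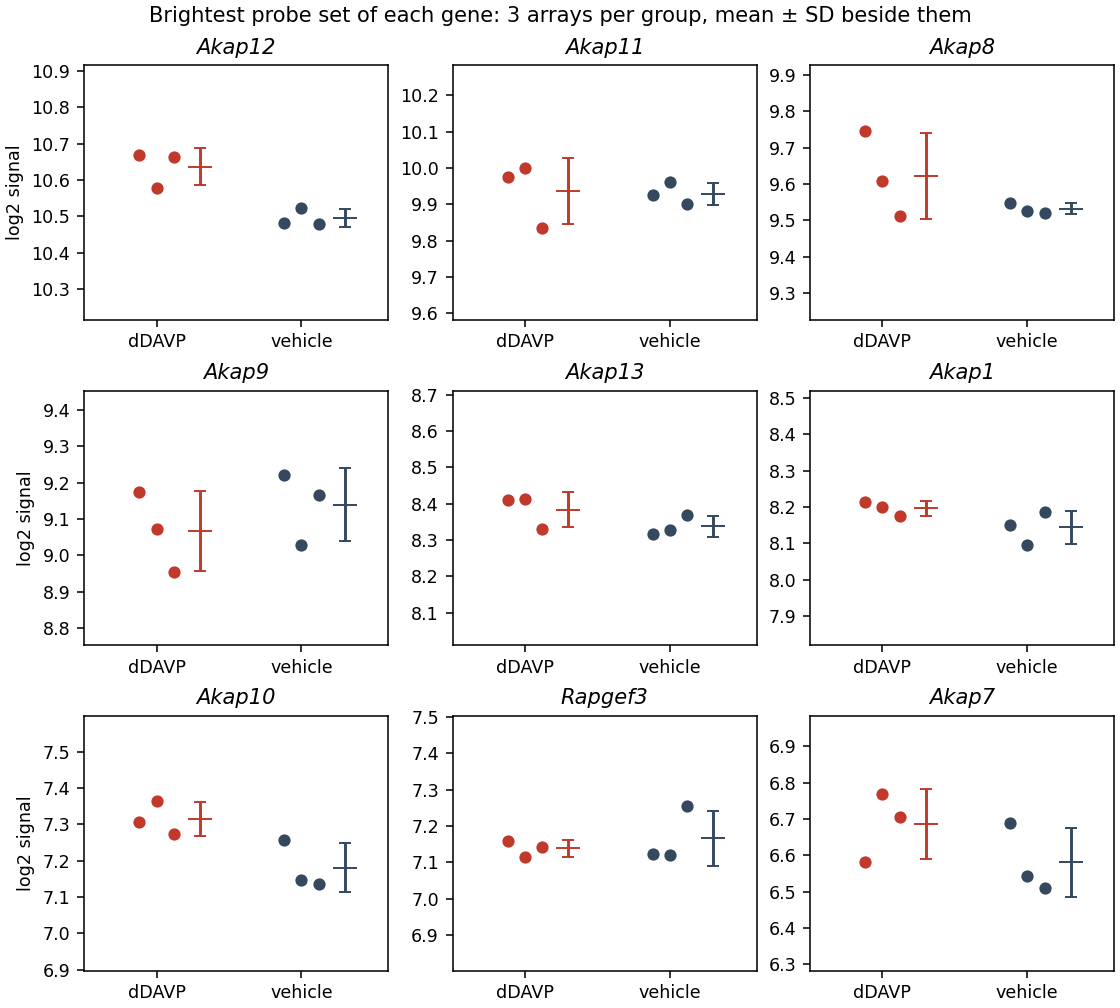
Log2 signal of the brightest probe set of each of the 9 genes, in order of level, with 1 point per array (dDAVP left, vehicle right) and the mean ± SD of 3 arrays beside the points. Each panel spans 0.7 log2 units around its own mean, and the groups separate only for Akap12 and Akap10.

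Akap12, a scaffold under the plasma membrane that also binds protein kinase C, gave the highest signal of the family and the smallest p among the genes. Its only probe set measured 10.67, 10.58 and 10.66 log2 units in dDAVP cells, against 10.48, 10.52 and 10.48 in vehicle cells. Every dDAVP array was above every vehicle array, by a narrow margin. The log2 change was 0.14 ± 0.058 (SE; fold interval 1.01 to 1.21) and did not pass (limma adjusted p = 0.601), although its unadjusted p was below 0.05. Of 12363 other genes, those whose brightest probe sets followed Akap12 most closely over the 6 arrays were the fatty acid receptor gene Ffar4 (Pearson r = 0.994), AY036118 (0.991) and the S100 protein gene S100a14 (0.990). These are descriptions of 6 points that share the difference between the groups, and 48 genes had r above 0.95. Their own log2 changes were 0.35, 0.14 and 0.25, and none of the 3 passed (adjusted p = 0.248, 0.615 and 0.308).

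Akap7 and Akap11, the members with a known link to aquaporin 2, did not pass the test. Akap7, whose product docks protein kinase A on membranes, measured 6.58, 6.77 and 6.70 log2 units in dDAVP cells and 6.69, 6.54 and 6.51 in vehicle cells. The groups overlapped, and the change was 0.10 ± 0.077 (adjusted p = 0.824, 95% interval -0.074 to 0.28). Akap11, a large vesicle-associated scaffold that also binds the kinase GSK3 beta, measured 9.9753, 10.0001 and 9.8339 in dDAVP cells and 9.9263, 9.9601 and 9.9006 in vehicle cells, with overlapping groups. Its change was the closest to 0 among the brightest probe sets, at 0.0074 ± 0.066 (adjusted p = 0.989, fold interval 0.904 to 1.12), and its sign turned with median centring (-0.0048).

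Akap1 and Akap10 encode anchors that can sit on mitochondria. Akap1, on the outer mitochondrial membrane, measured 8.21, 8.20 and 8.17 log2 units in dDAVP cells and 8.15, 8.10 and 8.19 in vehicle cells, with overlapping groups. Its change was 0.052 ± 0.057 on this probe set and 0.054 ± 0.062 on the dimmer one (adjusted p = 0.898 and 0.902), so both Akap1 probe sets gave nearly the same value. Akap10, which binds both type I and type II protein kinase A, measured 7.31, 7.37 and 7.27 in dDAVP cells and 7.26, 7.15 and 7.14 in vehicle cells on its brightest probe set. Those groups did not overlap, and the change was 0.13 ± 0.063 (adjusted p = 0.663, fold interval 0.992 to 1.21).

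Of the 3 other Akap10 probe sets, 2 had changes of the opposite sign. The next brightest, whose suffix (_s_at) marks probes that match more than one transcript, measured 6.60, 6.65 and 6.54 log2 units in dDAVP cells and 6.88, 6.61 and 6.87 in vehicle cells. Its change was -0.19 ± 0.087 (adjusted p = 0.648), with vehicle replicate 2 inside the dDAVP range. The third had -0.099 ± 0.12. The dimmest, at a mean of 3.22, had 0.14 ± 0.084, and its suffix (_x_at) marks probes that may bind other transcripts. The gap within each array between the brightest and the second probe set was 0.72 ± 0.017 in dDAVP cells and 0.39 ± 0.14 in vehicle cells (SD, n = 3 each). The groups did not overlap in this gap, whose difference was 0.32. The pair was chosen because its changes differ in sign, which fixes the direction of the gap, so the gap is a description with no test. Which part of the transcript each probe set reads was not analysed here, so the values stand side by side. Averaged over its probe sets, Akap10 had a log2 change of -0.0049 (adjusted p = 0.989).

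Akap8 anchors protein kinase A in the nucleus, Akap9 anchors it at the centrosome and Golgi apparatus, and Akap13 is a further anchor of the kinase. Akap8, the nuclear anchor, measured 9.75, 9.61 and 9.51 log2 units in dDAVP cells and 9.55, 9.53 and 9.52 in vehicle cells. The dDAVP arrays spread widely and their lowest fell below the vehicle arrays. The change was 0.091 ± 0.073 on this probe set and 0.038 ± 0.072 on the second (adjusted p = 0.844 and 0.949). The value on the brightest probe set was 0.028 without dDAVP replicate 1 and 0.15 without dDAVP replicate 3. Akap13 measured 8.41, 8.41 and 8.33 in dDAVP cells and 8.32, 8.33 and 8.37 in vehicle cells, a change of 0.046 ± 0.058 (adjusted p = 0.915) with overlapping groups. Its 3 dimmer probe sets had changes of -0.0090, 0.15 and 0.079, none of which passed.

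Akap9, the scaffold of the centrosome and Golgi, was the family member with mostly negative values. Its brightest probe set measured 9.18, 9.07 and 8.95 log2 units in dDAVP cells and 9.22, 9.03 and 9.17 in vehicle cells, a change of -0.071 ± 0.081 (adjusted p = 0.902) that became 0.077 with scaling to hybridisation controls. The groups overlapped on all 5 Akap9 probe sets, of which 4 had negative changes. The most negative, -0.24 ± 0.098 (limma adjusted p = 0.602, unadjusted p below 0.05), belonged to the dimmest, which measured 3.25, 3.18 and 3.12 in dDAVP cells and 3.21, 3.50 and 3.56 in vehicle cells. Its suffix (_x_at) marks probes that may bind other transcripts.

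Rapgef3, which encodes the exchange factor Epac1, had the lowest unadjusted p of all members, but on the dimmest of its 4 probe sets. That probe set measured 5.54, 5.39 and 5.44 log2 units in dDAVP cells and 5.34, 5.23 and 5.15 in vehicle cells, without overlap. Its change was 0.22 ± 0.073, or 1.16-fold (95% interval 1.04 to 1.31), and did not pass (limma adjusted p = 0.479). The brightest probe set measured 7.16, 7.11 and 7.14 in dDAVP cells and 7.12, 7.12 and 7.25 in vehicle cells, a change of -0.028 ± 0.062 (adjusted p = 0.956) with overlapping groups, whose sign turned without vehicle replicate 3 (0.016) and with scaling to hybridisation controls (0.12). The other 2 had 0.17 ± 0.092 and 0.075 ± 0.10 (adjusted p = 0.733 and 0.924). The probe set at 0.075 also carries the suffix _x_at.

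The gap between the brightest and the dimmest Rapgef3 probe set was 1.68 ± 0.055 log2 units in dDAVP arrays and 1.93 ± 0.16 in vehicle arrays (SD, n = 3 each), a difference of -0.25 without overlap that was -0.16 without vehicle replicate 3. The gap to the second probe set differed by -0.19, also without overlap, and by -0.13 without dDAVP replicate 1. In all, 7 such pairs, the brightest against each probe set of opposite sign, were set side by side in 4 genes (Akap9, Akap10, Akap13 and Rapgef3), and in 3 of them the groups did not overlap. All 7 were chosen for their opposite signs, and pairs within a gene share its brightest probe set. The same count was not made over all genes, so these gaps too are descriptions with no test.

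**Figure D3:**
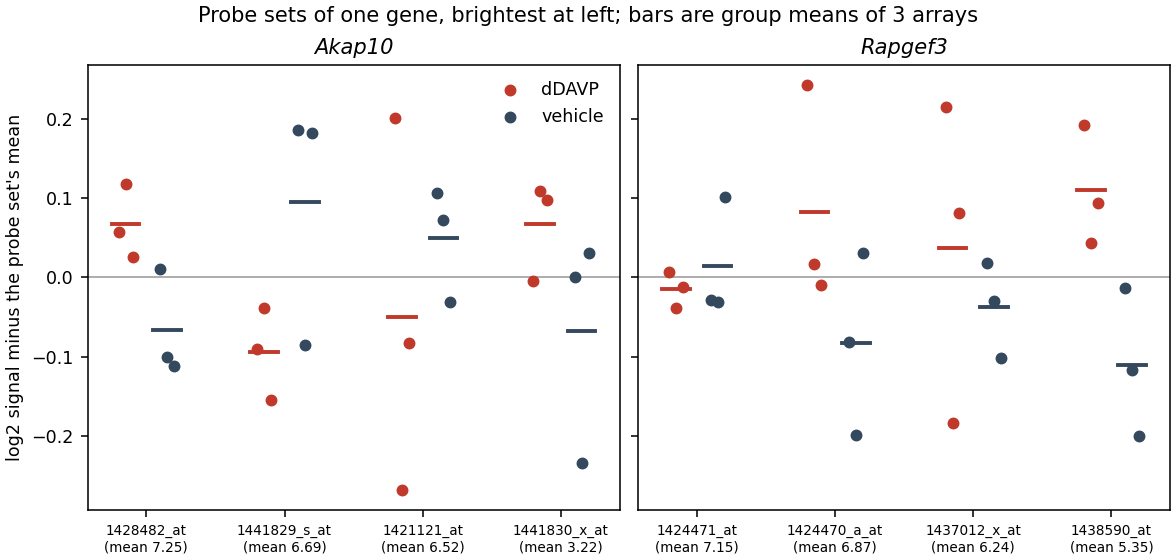
Log2 signal of each Akap10 and Rapgef3 probe set minus that probe set's own mean over 6 arrays, with 1 point per array (dDAVP left, vehicle right) and a bar for each group mean. For Akap10 the brightest and the dimmest probe set have higher dDAVP means and the other 2 lower ones, and for Rapgef3 the brightest is alone in having the lower dDAVP mean.

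The cAMP response element is the DNA site through which the factor CREB, once phosphorylated by protein kinase A, acts on genes, and its core is TGACG. Upstream sequences were searched for this core on both strands (TGACG or CGTCA) in the 250 bases before each start listed in the RefSeq promoter table of build GRCm38.p6. Of the members, 9 of 10 had an entry, with 13 starts in all. Akap12 had no entry, and Rapgef4, which was not measured, was counted. The core was in 2 of the 13 starts, 1 each of Akap11 and Rapgef3. Among all 32851 starts 17.8% held at least 1 core, and 0.688% held 3 or more, so the count of members is near the background. The full palindromic site TGACGTCA, in which a core on each strand overlaps, was in 0 member sequences and in 1.55% of all. The 2 member sequences are shown with that of Aqp2, the gene with the largest rise on the arrays, cores in capitals, 5′ to 3′ on the gene's strand.
Akap11 (chr14:78536861-78537110, minus strand): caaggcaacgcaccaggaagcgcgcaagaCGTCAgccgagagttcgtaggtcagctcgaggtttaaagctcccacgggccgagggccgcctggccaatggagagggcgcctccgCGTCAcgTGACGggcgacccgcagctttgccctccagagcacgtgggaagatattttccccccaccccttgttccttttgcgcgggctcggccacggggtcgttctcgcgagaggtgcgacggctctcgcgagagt
Rapgef3 (chr15:97767667-97767916, minus strand): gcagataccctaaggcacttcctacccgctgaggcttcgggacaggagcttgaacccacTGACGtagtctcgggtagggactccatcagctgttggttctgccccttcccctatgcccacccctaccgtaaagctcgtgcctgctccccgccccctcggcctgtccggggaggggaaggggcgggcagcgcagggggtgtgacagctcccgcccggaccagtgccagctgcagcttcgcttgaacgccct
Aqp2 (chr15:99578806-99579055, plus strand): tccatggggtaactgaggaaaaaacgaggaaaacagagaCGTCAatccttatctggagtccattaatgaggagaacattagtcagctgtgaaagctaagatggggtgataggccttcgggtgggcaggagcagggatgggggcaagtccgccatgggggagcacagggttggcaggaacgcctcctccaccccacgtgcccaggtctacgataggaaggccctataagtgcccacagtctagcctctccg
The Akap11 sequence held 3 cores, at distances of 221, 136 and 129 bases before the start. That of Rapgef3 held 1, beginning 191 bases before the start, and that of Aqp2 held 1, beginning 211 bases before it. The matches are letters in these windows, and neither member gene passed the test while Aqp2 rose 17.8-fold.

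Few genes around the family passed the test. Of 22 other measured anchoring proteins 0 passed in limma, and 2 had an unadjusted p below 0.05. The median log2 change of this list was -0.020, against 0.012 for all genes by their brightest probe set, of which 7.8% had an unadjusted p below 0.05. The smallest p values were those of the membrane scaffold Akap5 (-0.29 ± 0.11, mean 4.39 in dDAVP cells and 4.68 in vehicle cells), the transcriptional corepressor Cbfa2t3 (-0.21 ± 0.089) and the muscle and neuronal anchor Akap6 (-0.26 ± 0.13), with adjusted p of 0.579, 0.620 and 0.692. Protein kinase A itself showed 0 passing genes among 8 measured subunits and inhibitors (0 at an unadjusted p below 0.05, median 0.0096). The catalytic subunit Prkacb was at -0.13 ± 0.067, with all dDAVP arrays below all vehicle arrays, an order seen for 5.35% of all probe sets. The regulatory subunit Prkar2b was at 0.21 ± 0.12 and the inhibitor Pkia at -0.12 ± 0.090 (adjusted p = 0.697, 0.753 and 0.822).

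On the Epac side, 0 of 17 measured Rap GTPases and their regulators passed, and 2 had an unadjusted p below 0.05. The median log2 change was 0.030. All dDAVP arrays lay above all vehicle arrays for 3 of the 17 and below them for 3, against 8.07% and 5.35% of all probe sets. The exchange factor Rasgrp2 was at 0.23 ± 0.084, the GTPase activator Rap1gap at -0.16 ± 0.067 and Sipa1l1, another activator of this kind, at -0.16 ± 0.071 (adjusted p = 0.541, 0.613 and 0.633). Among 10 measured Rap effectors 0 passed and 1 had an unadjusted p below 0.05 (median 0.00053). That was the Rac exchange factor Tiam1, at 0.13 ± 0.055 (adjusted p = 0.619), followed by the Ral exchange factor Rgl1 at -0.28 ± 0.15 and by Vav2 at 0.060 ± 0.069 (adjusted p = 0.721 and 0.904).

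Among 17 other enzymes and partners that anchoring complexes hold, 1 rose and 0 fell (median -0.0023), against 0.259% and 0.0324% of all genes. At an unadjusted p below 0.05 there were 4, against 7.8% of all genes, in a list chosen with earlier results of these data known. The gene that rose was Pde4b, a phosphodiesterase that breaks down cAMP, with a mean of 6.21 ± 0.11 log2 units in dDAVP cells and 4.40 ± 0.19 in vehicle cells (SD, n = 3 each), a 3.51-fold rise (limma adjusted p = 9.74e-04). Its relative Pde4d was at 0.55 ± 0.12 and the adenylyl cyclases Adcy5 and Adcy6 at -0.26 ± 0.083 and 0.20 ± 0.075, and these did not pass (adjusted p = 0.255, 0.461 and 0.556). Among the family members, the largest change on a brightest probe set, 0.14 for Akap12, was thus set beside 1.81 for Pde4b and 4.15 for Aqp2 on the same arrays.

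**Figure D4:**
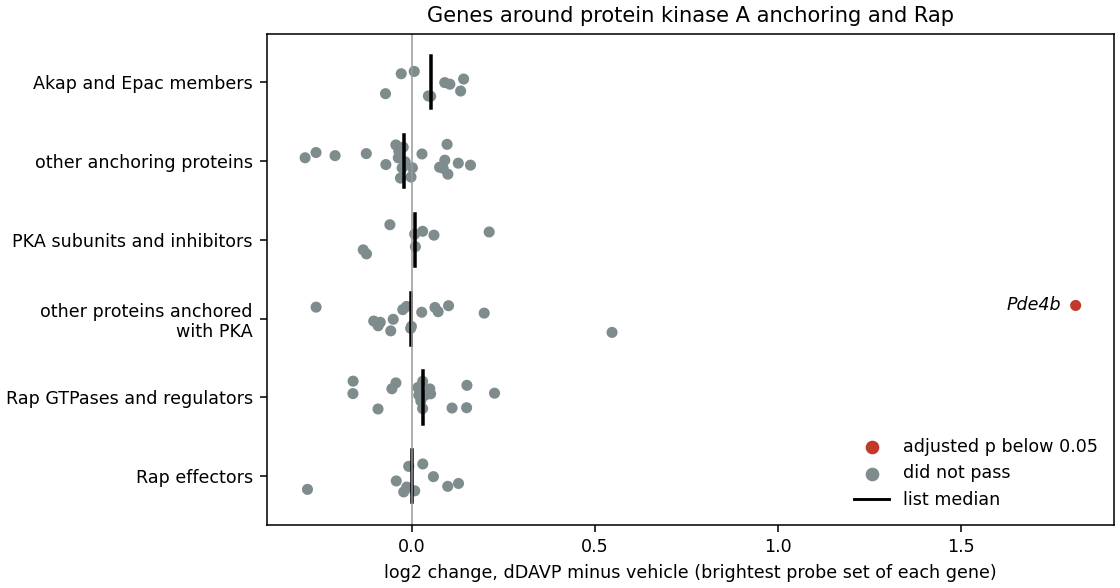
Log2 change (dDAVP minus vehicle) of each gene by its brightest probe set, in the family and in 5 lists of genes around it, with 1 point per gene and a black line at each list's median. Pde4b, at 1.81, is the 1 gene of these lists that passed, and the family members lie between -0.071 and 0.14.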

How the data were processed

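Log2 signals of 28287 probe sets on 6 arrays were used as the authors deposited them. Per the submitters' processing notes, the software was Affymetrix Expression Console 1.1 with RMA and MAS5, and the sources used here do not say which of those methods made the values. From their near-equal medians the values were taken as already normalized between arrays. Summarising over probes can compress changes of dim probe sets. The file gives no detection calls, and the number of arrays limits the precision. The 62 control probe sets did not enter the test.

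Gene names came from the platform annotation (23097 with 1 symbol, 611 with several, 4517 with none), of which 23026 matched a RefSeq gene by Entrez ID and 0 symbols changed. The comparison of dDAVP with vehicle used limma 3.58.1 in R 4.3.3 (lmFit and eBayes, group only) on 28225 probe sets, with Benjamini-Hochberg adjustment over all of them. SE and 95% intervals are those of this fit. The code was tested on simulated data. The members, the lists and the naming rule were chosen with earlier results of these data known. The rule named all members, Aqp2, and the 3 genes most correlated with the member whose brightest probe set had the smallest p. In each pathway list it named the genes that passed or the 3 of smallest p (Pde4d, Adcy5 and Adcy6 were added after their values were seen). Cell type markers were named where they passed, and otherwise as examples of the levels in their list, chosen after their values were seen. Alternatives were quantile normalization, median centring, scaling to poly-A or hybridisation controls, a filter on dim probe sets, trended and robust priors, a replicate block, leaving out each array, averaging a gene's probe sets, and stricter thresholds.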

Additional observations from a re-analysis of the deposited data

How the results depend on the processing

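The count of member probe sets and of member genes that passed was 0 under every alternative run. The 9 member genes gave 134 values under 15 settings, of which 0 passed and 124 kept their direction. The lowest adjusted p was 0.137, for Akap12 scaled to the hybridisation controls, which moved the median of all probe sets to 0.15 (20 of 24 member probe sets positive). These controls themselves had a mean of 10.46 log2 units in dDAVP arrays and 10.61 in vehicle arrays, a difference of -0.148. For the poly-A controls the difference was 0.024. The log2 change turned for Akap11 with median centring (-0.0048) and poly-A scaling (-0.016), for Akap9 (0.077) and Rapgef3 (0.12) with hybridisation control scaling, and for Akap10 (-0.0049) and Rapgef3 (0.11) when probe sets were averaged. Leaving out 1 array gave -0.024 to 0.059 for Akap11, -0.051 to 0.016 for Rapgef3, 0.028 to 0.15 for Akap8, -0.13 to -0.014 for Akap9, 0.062 to 0.16 for Akap7, 0.029 to 0.073 for Akap1 and 0.032 to 0.073 for Akap13. It gave 0.099 to 0.36 for the gap of the Akap10 pair with overlapping groups, -0.20 to -0.025 for that of Rapgef3, -0.21 to 0.023 for the gap of the Akap9 pair and -0.0040 to 0.091 for that of the Akap13 pair. Akap7 lay below the median level and has no value under the filter on dim probe sets. Aqp2 (4.11 to 4.30) and Pde4b (1.74 to 1.96) passed in all fits that held them.

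Of all probe sets 61 passed, 53 higher and 8 lower (86.9% higher). With hybridisation control scaling 282 passed, 275 higher (97.5%), and with poly-A scaling 4 were lower. Above the median level 95 passed, 21 lower. With a trended prior 146 passed, 116 higher and 30 lower, and at a threshold of 0.01 23 passed, 19 higher and 4 lower. Leaving out 1 array gave 22 to 46 in all, 18 to 40 higher and 4 to 6 lower. With the replicate number as a block 24 passed, 21 higher and 3 lower. The deviations of same-numbered samples from their group means had correlations of 0.196, 0.0463 and -0.0522. Differently numbered samples were not compared, so these values cannot decide whether the numbers pair the samples. The block changed no member's call. The cause of these shifts was not tested.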
